A study of Caenorhabditis elegans with 18 samples.

Results

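In Caenorhabditis elegans larvae of 3 strains, 164 genes fell steeply within 30 min at 34 °C whatever the strain. They were chosen by their measured levels: in every strain the mean at 20 °C reached 5 CPM (fragments of the gene per M fragments of the library), the mean at 34 °C was at most 33.3% of it, and each 34 °C library lay below each 20 °C library. F28A12.4 was left out by the rule. The 164 genes are 1.8% of the 9102 genes that reached 5 CPM at 20 °C in every strain, and all were among the 14219 genes tested of 20389 in the table. The fall itself is therefore the way the genes were selected and is described below with no test. The selection did not use the level of one strain against another at the same temperature, and those differences are tested, although a minimum of 5 CPM in every strain keeps out genes that are low in one of them.

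Whole animals in the middle of the second larval stage were sequenced as polyadenylated RNA, in 18 libraries of 14.9 to 32.3 M fragments, 3 libraries in each of 6 groups. N2 is the wild type strain. Strain PS3551 carries hsf-1(sy441), an allele of the heat shock transcription factor gene whose product lacks part of its activation domain, and is called sy441 here. Strain AM1062 carries hsf-1(sy441), the transgene rmSi1[hsf-1::gfp] and unc-119(ed9), and is called the transgene strain. Each strain was collected at 20 °C, or after its plates had been held under water at 34 °C for 30 min. Whether the 3 libraries of a group are separate cultures is not stated in the labels, and the spread that enters each p-value is that between libraries, possibly only technical. As a check of the labels, hsf-1 stood at 37.9 to 42 CPM in N2, 92.9 to 103 CPM in sy441 and 104 to 115 CPM in the transgene strain at 20 °C. The gene unc-119 stood at 2.53 to 3.34 CPM in the transgene strain against 16.3 to 20 CPM in the other two at 20 °C. Of 33 neuron marker genes tested, 22 were called lower in heat in N2, 14 in sy441 and 20 in the transgene strain, and the RNA comes from whole animals, in which fewer cells of a type and less RNA per cell cannot be told apart.

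Heat shock is known for the rapid induction of chaperone genes, and at the same time transcription of many other genes slows. The level of a transcript after a short exposure depends on both its synthesis and its decay, so transcripts that turn over quickly can show a fall sooner than stable ones. In larvae, neurons and muscles communicate through receptor channels, G protein coupled receptors and neuropeptides, which are made in few cells and at low levels. Of the 164 genes, 85 have a role that could be stated, and 41 of those encode receptors, channels, gap junction proteins, G protein signalling proteins or neuropeptides. The roles were written after the genes had been seen. So were the lists of ligand-gated ion channel, amine, muscarinic and peptide receptor, and G alpha and RGS genes. Their shares below are a description, from which no enrichment is read. Where 1.8% of the 9102 genes of at least 5 CPM were selected, the share was 14 of 55 ligand-gated ion channel genes, 6 of 48 amine, muscarinic and peptide receptor genes, 4 of 18 G alpha and RGS genes, 8 of 91 neuropeptide and insulin genes and 4 of 46 potassium channel genes. Lists with few or no members were also present, such as nuclear hormone receptors with 1 of 117 genes and cuticle collagens with 0 of 58. Of the 164 genes, 79 were given no role, among them the 56 genes known by a sequence name alone.

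The median depth of the fall was close in the 3 strains, within the bounds that the selection set. By the plain CPM of the selection, the median gene kept 24.1% of its 20 °C level in N2, 24.2% in sy441 and 22.9% in the transgene strain. All 9102 genes of at least 5 CPM kept a median of 82.7%, 81.6% and 83.5%. The 34 °C libraries have a different RNA composition, and with TMM scaling, which corrects for it, the medians of the 164 genes were 29.1%, 30.5% and 27.7%. The levels and percentages in the rest of the text are on this TMM-scaled CPM, except where plain CPM is named. On that scale 81 of the 164 genes were at or below 33.3% in every strain, 164 were at or below 50%, and 162 kept the 34 °C libraries of every strain below its 20 °C libraries. A gene is called here where edgeR's quasi-likelihood test, with Benjamini-Hochberg adjustment over all genes tested, gave an adjusted p under 0.05. Heat calls covered 164 of the genes in N2, 163 in sy441 and 163 in the transgene strain, where 19.8%, 15.8% and 18.2% of all genes tested were called lower, and nothing is read from these counts because the same contrast chose the genes. The authors' deposited table of heat shock in N2 lists 1684 genes, 950 of them as higher, and holds 139 of the 164 genes, 0 of them as higher, from the same N2 libraries that chose them.

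The selection capped the share left in each strain, so its values in the 3 strains are given as a description. By plain CPM, the widest ratio between 2 strains in the share left had a median of 1.23, with a highest value of 2.56. It could be formed for 163 genes. On the same plain CPM the least was left in N2 for 56 genes, in sy441 for 38 and in the transgene strain for 70. Tests of the difference in heat response called 0 of the 164 genes for sy441 against N2, 0 for sy441 against the transgene strain and 0 for the transgene strain against N2, where 0.492%, 0.197% and 0.0% of all genes tested were called in either direction. At an unadjusted p of 0.05, 15, 11 and 6 of the genes passed in the same 3 edgeR tests. The share of all genes at that p is not given for these 3 tests, so nothing is read from the counts. DESeq2 also called 0 of the 164 in each, where it called 2.94%, 0.482% and 0.2% of all genes to which it gave an adjusted p, and limma called 0, against 0.38%, 0.218% and 0.0% of all genes. With the replicate number as a block, edgeR called 1 gene for sy441 against N2 and 0 in the other pairs, against 3.19%, 0.429% and 0.0% of all genes, and without N2 34 °C replicate 3 it also called 1 in the first comparison. The fitted difference in heat response, sy441 minus the transgene strain, was above 0 for 129 of the 164 genes and for 58.4% of the 9102, with medians of 0.15 and 0.03 on the log2 scale. For sy441 minus N2 it was above 0 for 98 genes and 55.4%, with medians of 0.10 and 0.03, and for the transgene strain minus N2 for 66 genes and 49.5%. The selection bounds the response in each strain, so these values say nothing about its likeness between strains.

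**Figure D1:**
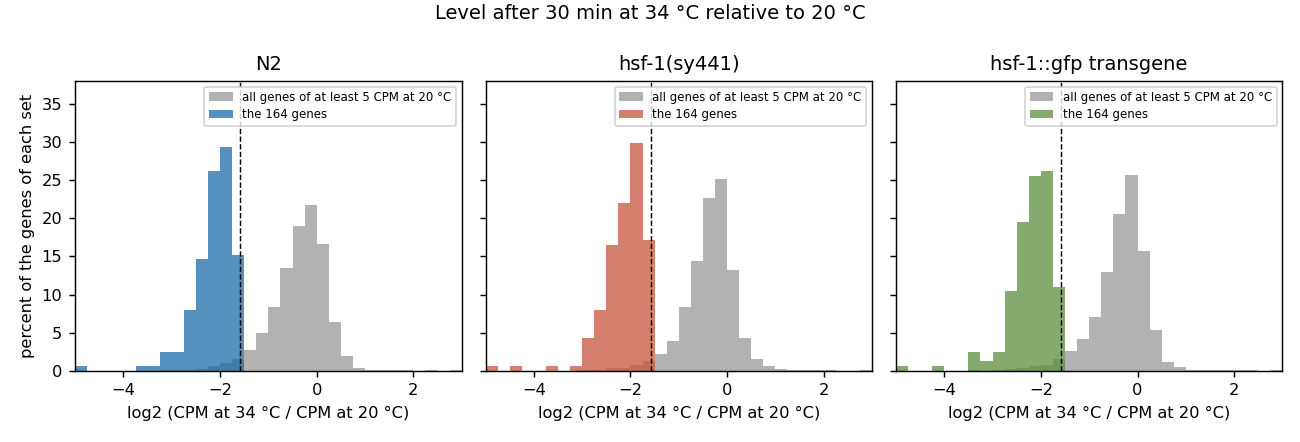
Distribution of the log2 ratio of the mean plain CPM at 34 °C to that at 20 °C, in percent of each set of genes, one panel per strain. Grey bars are the 9102 genes of at least 5 CPM, coloured bars the 164 genes selected at or left of the dashed line (33.3%), and ratios beyond the axis are placed in its outermost bars.

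Genes close to the limits show how the selection cuts a continuous range. The values beside the limits are on plain CPM, as in the selection. Just inside the ratio limit, the strain with most left had 33.3% for F25H9.2, 33.2% for E02A10.3 and 33.2% for C06E4.2. Just outside were spl-2 at 33.3%, hrg-7 at 33.4% and F28D1.6 at 33.4%. At the level limit, T27A10.2 had 5.021 CPM and spp-24 and sulp-1 5.024 CPM in their lowest strain, while dop-3, a dopamine receptor gene with 4.867 CPM, stayed outside. pana-1, rhr-1 and argk-1, with 16.8%, 31.8% and 28.3% left, stayed outside for overlapping libraries alone. A limit of 50% in place of 33.3% would take in 599 genes and one of 25% would take in 61.

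The genes were of low abundance. Their median level at 20 °C was 11.7 CPM in N2, 13.2 CPM in sy441 and 11.9 CPM in the transgene strain, and at 34 °C 3.37, 3.66 and 3.04 CPM. Per length, the authors' FPKM (fragments per kilobase of transcript, scaled to library size) at 20 °C had a median of 10.7 over the 164 genes against 23.7 over the 9102 genes. The summed level of the 164 genes in N2 was 3360, 3210 and 3470 CPM at 20 °C and 932, 904 and 1090 CPM at 34 °C. In sy441 the sums were 3600, 3540 and 3740 CPM at 20 °C and 1130, 1100 and 1200 CPM at 34 °C. In the transgene strain they were 3280, 3510 and 3520 CPM at 20 °C and 904, 937 and 1130 CPM at 34 °C. The sums of the 34 °C libraries lay below those of the 20 °C libraries in each strain, which the selection fixed in advance. All 3 sy441 sums at 20 °C lay above the N2 and transgene sums.

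Ligand-gated ion channels were the largest class of known role, with 14 genes. They open in response to a transmitter, and the 14 include subunits for glutamate (glr-1, glr-5, glc-4), acetylcholine (acr-2, acr-15, acr-16, unc-38, acc-1) and serotonin (mod-1, lgc-50), next to lgc-31, lgc-38, lgc-47 and cup-4. Between 19.7% and 38.3% of the 20 °C level was left over the 14 genes and 3 strains, with medians of 29.4% in N2, 32.2% in sy441 and 27.8% in the transgene strain. All were of low abundance, from 3.01 FPKM for glr-1 to 14.8 FPKM for cup-4 at 20 °C. The division of fragments is uncertain for lgc-31 and unc-38, which share loci with other genes.

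The gene glr-1, which encodes an AMPA-type glutamate receptor subunit of interneurons, lies on chromosome III at 8584106 to 8588535 of build ce10. It stood at 9.54, 9.33 and 8.26 CPM in the 20 °C libraries of N2 and at 2.65, 2.2 and 2.74 CPM in those of 34 °C. In sy441 the values were 10.4, 10.3 and 9.11 CPM at 20 °C and 3.15, 3.39 and 3.6 CPM at 34 °C. In the transgene strain they were 6.64, 10.5 and 7.09 CPM at 20 °C and 1.79, 2.9 and 2.03 CPM at 34 °C. The glr-1 libraries of the 2 temperatures were apart in every strain, as the selection required. Its mean was 3.57-fold lower in N2, 2.94-fold in sy441 and 3.62-fold in the transgene strain. SOL-1, a transmembrane protein that works with GLR-1 at synapses, and MOLO-1, an auxiliary protein of levamisole-sensitive acetylcholine receptors, are encoded by genes of the same set, with 28.7% to 37.9% left.

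Subunits of several acetylcholine receptors fell together. The gene unc-38, for a subunit of the levamisole-sensitive receptor of muscle, stood at 11.4, 11.8 and 12.1 CPM at 20 °C and 4.04, 2.56 and 3.95 CPM at 34 °C in N2, and it shares a Cuffdiff locus with 1 other gene. For acr-16, which encodes the subunit of the levamisole-insensitive receptor of muscle, the N2 libraries held 16.2, 19.3 and 12.7 CPM at 20 °C and 6.21, 4.71 and 4.75 CPM at 34 °C. For acr-2, a subunit gene of motor neurons, they held 6.11, 6.23 and 5.54 CPM and 2.72, 2.4 and 1.67 CPM. In each case the highest 34 °C library was below the lowest 20 °C library, as the selection required. Of acr-2, 38%, 35% and 25.9% was left in N2, sy441 and the transgene strain. The neighbouring genes acr-15 and acr-16 lie 5827 bases apart on chromosome V, and slc-17.8, a transporter gene of the same set, lies 7128 bases from acr-15.

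The serotonin-gated chloride channel gene mod-1 stood at 8.16, 8.71 and 7.52 CPM at 20 °C and 1.88, 2.51 and 2.41 CPM at 34 °C in N2. In sy441 and the transgene strain 33.8% and 31% of it was left, against 27.9% in N2. The gene cup-4, whose product belongs to the channel family and is needed for endocytosis by coelomocytes, kept 38.2% in N2, 27.5% in sy441 and 27.9% in the transgene strain.

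Amine, muscarinic and peptide receptors, which couple to G proteins, formed a second class, with 6 genes and 11.4% to 38% left. They are gar-3, a muscarinic acetylcholine receptor gene, dop-5, a dopamine receptor gene, and dmsr-7, npr-16, npr-25 and frpr-18, of peptide receptor families. The list of sensory G protein coupled receptors held 2 further members, sro-1 and srlf-34, which are not counted in this class. The gene gar-3 stood at 18.9, 20.1 and 25.7 CPM at 20 °C and 6.35, 3.94 and 7.63 CPM at 34 °C in N2. In sy441 its libraries held 25.8, 26.6 and 28.9 CPM and 7.44, 7.12 and 8.36 CPM. In the transgene strain they held 22.5, 21.2 and 25.4 CPM and 5.33, 5.3 and 5.94 CPM. The temperatures were apart for gar-3 in every strain, as the selection required, with 27.7%, 28.2% and 24% left. For dmsr-7 22.3%, 25.9% and 19.4% was left. The genes npr-25 and dop-5 are neighbours on chromosome V, with a gap of 9462 bases.

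The signalling step behind such receptors was represented by odr-3 and gpa-7, which encode G protein alpha subunits, and by rgs-1 and rgs-4, whose products speed the return of G proteins to the inactive state. Between 18.8% and 34.1% of the 4 genes was left. The gene odr-3, known for its part in olfaction, stood at 5.94, 6.12 and 7.13 CPM at 20 °C and 2.09, 1.53 and 2.34 CPM at 34 °C in N2. For rgs-4 the mean fell from 18.4 ± 1.34 to 3.47 ± 0.178 CPM (SD, n = 3) in N2.

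Genes of secreted peptides made up 8 members: flp-25, nlp-43, nlp-53, nlp-58, nlp-68, nlp-89, nlp-101 and the insulin-like gene ins-30. Their share left ran from 14.6% to 41.8%, with an uncertain division of fragments between nlp-53 and its locus partner. The gene nlp-43 had the highest level among the 8, with 47 FPKM, and stood at 14.7, 15 and 17.2 CPM at 20 °C and 5.44, 4.09 and 5.42 CPM at 34 °C in N2. The gene flp-25 stood at 11.3, 10.6 and 10.6 CPM and 3.14, 3.07 and 2.88 CPM in the same libraries. Each of these peptide genes had no overlap between the temperatures, as the selection required.

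Potassium channels set the resting potential and end action potentials, and 4 of their genes were in the set: twk-7, twk-29 and twk-48, of the two-pore family, and kcnl-4, of the calcium-activated family. Between 23.6% and 39.1% was left. The gene twk-7 stood at 28.5, 31.8 and 33 CPM at 20 °C and 6.76, 8.24 and 10.3 CPM at 34 °C in N2. The sodium channel gene unc-8 and the innexin genes inx-10 and che-7, for gap junction proteins, kept 27.4% to 38.2%.

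**Figure D2:**
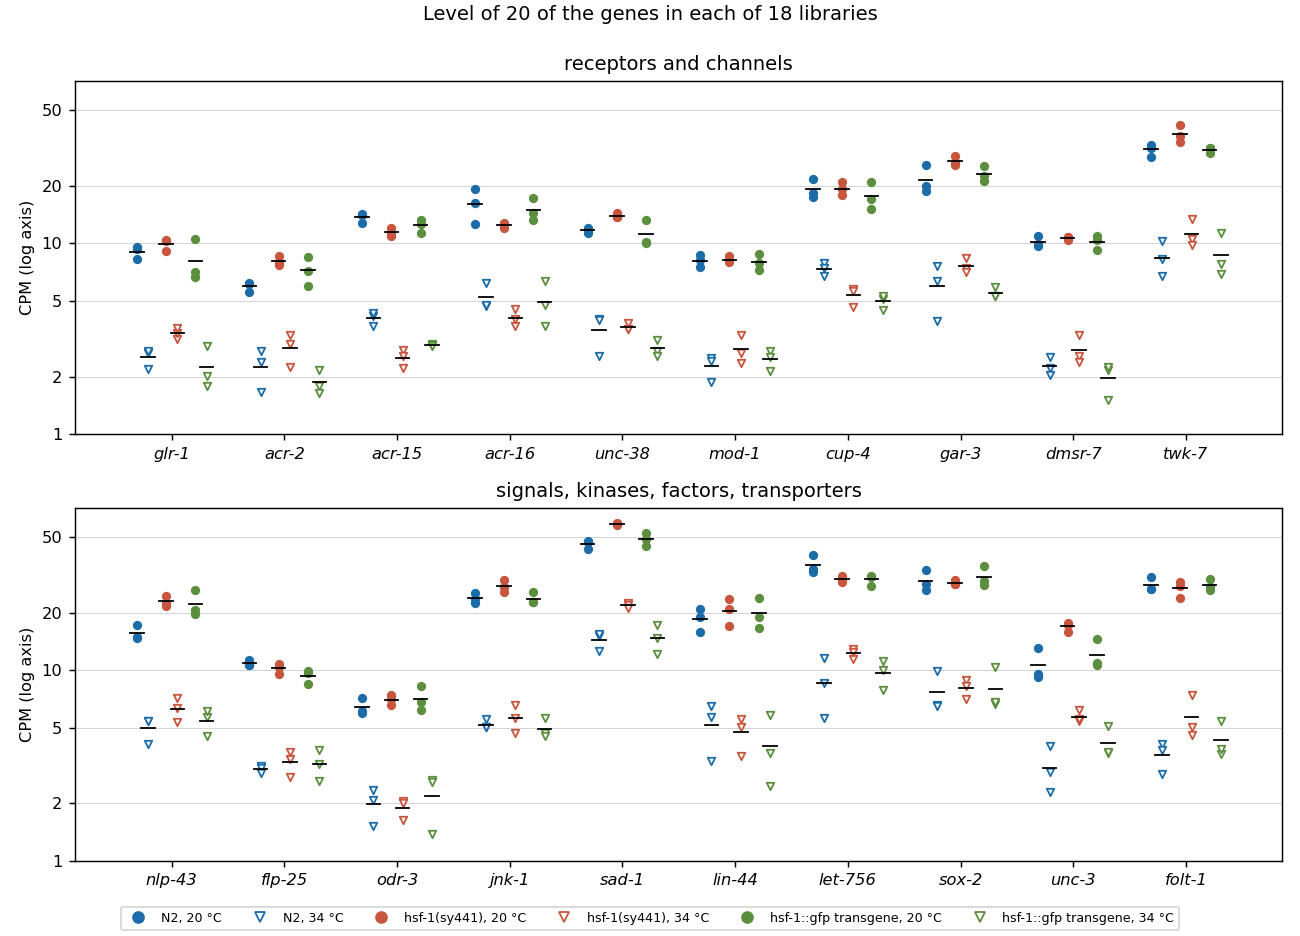
TMM-scaled CPM on a log axis of 20 of the genes in each library, with filled circles for 20 °C, open triangles for 34 °C, colours for the strains and a line at the mean of 3 libraries. For each gene drawn, the 34 °C libraries of a strain lie below its 20 °C libraries, as the selection required.

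Kinase genes in the set were jnk-1 and mapk-15, of the MAP kinase family, sad-1, and aakg-3, for a regulatory subunit of the AMP-activated kinase. The gene jnk-1, for a stress-activated MAP kinase of neurons, lies on chromosome IV at 6957630 to 6963705. It stood at 23.7, 22.5 and 25.3 CPM at 20 °C and 5.51, 5.01 and 5.02 CPM at 34 °C in N2. In sy441 it held 27.3, 25.6 and 29.7 CPM and 4.68, 5.58 and 6.56 CPM, and in the transgene strain 22.8, 25.6 and 22.8 CPM and 5.61, 4.68 and 4.49 CPM. Of jnk-1, 21.8%, 20.4% and 20.7% was left in the 3 strains, and the selection required that the temperatures did not overlap. The gene sad-1, for a kinase of neuronal polarity and presynaptic assembly, kept 31.5%, 37.5% and 30.4%.

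Secreted signals of development were present too, with lin-44, a Wnt gene, let-756, a fibroblast growth factor gene, and tig-2, of the TGF-beta family. The gene lin-44 stood at 20.9, 19 and 15.9 CPM at 20 °C and 5.65, 6.45 and 3.34 CPM at 34 °C in N2, and kept 27.7%, 22.9% and 20.1% in the 3 strains. The gene let-756 stood at 32.5, 33.8 and 40 CPM and 5.58, 8.59 and 11.6 CPM in N2, and kept 24.2%, 40.7% and 32.3%. No strain had overlapping temperatures for either, as the selection required. With these 3 genes left out, 14 of the 30 other Wnt pathway genes tested were called lower in N2, 8 in sy441 and 12 in the transgene strain, while 4, 3 and 3 were called higher. Among all genes tested 19.8%, 15.8% and 18.2% were called lower. For the 25 other genes of the EGF and Ras pathway list the lower calls were 11, 8 and 7 and the higher calls 0, 3 and 2. For the 18 others of the TGF-beta list they were 6, 4 and 5 lower and 1, 2 and 1 higher.

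Transcription factor genes of the set were sox-2, unc-3, which specifies cholinergic motor neurons, cog-1, a homeobox gene, and nhr-116. The gene sox-2 stood at 28.3, 33.3 and 26.3 CPM at 20 °C and 6.56, 9.92 and 6.49 CPM at 34 °C in N2, with 26.1%, 28% and 25.8% left in the 3 strains. In N2 unc-3 stood at 9.54, 9.22 and 13 CPM and 2.3, 2.92 and 4.01 CPM, with 29.1%, 33.6% and 34.6% left.

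Transporters and conjugating enzymes were among the most abundant members. The glutamate transporter gene glt-1, which clears glutamate, had the second highest FPKM of the set, 198. It stood at 296, 248 and 346 CPM at 20 °C and 97.7, 65.4 and 160 CPM at 34 °C in N2. The spread in the heated libraries was wide, within the lack of overlap that the selection required. The folate transporter gene folt-1 went from 30.6, 26.7 and 26.6 CPM to 4.11, 2.86 and 3.81 CPM in N2, with 12.9%, 21.2% and 15.4% left. Over the 10 transporter and pump genes 12.9% to 41.3% was left. The UDP-glucuronosyltransferase genes ugt-62 and ugt-16, whose products conjugate small molecules, stood at 70.8 and 64.9 FPKM, and ugt-16 went from 131, 127 and 122 CPM to 35.1, 40 and 29.1 CPM in N2. The 4 cuticlin-like genes cutl-9, cutl-15, cutl-16 and cutl-24, for zona pellucida domain proteins of the cuticle family, kept 23% to 33.2%.

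Among the genes of no stated role, K06A4.7 on chromosome V at 9489910 to 9491468 stood out by its FPKM, 738, and by its fall. Its CPM was below that of glt-1, which had 198 FPKM. FPKM depends on the transcript length used, which is not given. K06A4.7 stood at 55.8, 50.3 and 53.4 CPM at 20 °C and 5.58, 3.22 and 7.22 CPM at 34 °C in N2. In sy441 it held 72.7, 69.7 and 76.7 CPM and 6.6, 5.61 and 9.56 CPM, and in the transgene strain 63.7, 62.3 and 63.9 CPM and 4.43, 3.03 and 6.16 CPM. Its level was thus 9.95-fold, 10.1-fold and 13.9-fold lower after heat. Other deep falls were those of T11G6.3, with 13.1%, 16.3% and 10.9% left, and gtnt-51, with 14%, 23.4% and 12%. M117.1 kept 16.9%, 25.5% and 18.9%, and lron-5, a leucine-rich repeat gene, 18.4%, 16.6% and 15%. Also deep was the fall of srlf-34, of the sensory receptor list, with 11.1%, 6.32% and 15.9% left.

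The tetraspanin gene tsp-7 had the largest fall in the estimates, and those estimates are uncertain. It was estimated at 14.1, 15.1 and 19 CPM at 20 °C in N2 and at 0 fragments in all 3 heated libraries. The transgene strain was at 0 in its heated libraries too, and sy441 at 0, 0 and 45.4 fragments. It shares a Cuffdiff locus with T23D8.3, and its 20 °C fragment values were not whole, as those of T23D8.3 in the same libraries. The locus partner T23D8.3 stood at 174, 173 and 174 CPM at 20 °C and 254, 226 and 240 CPM at 34 °C in N2. The 2 genes together were at 126% of their 20 °C level after heat in N2, 107% in sy441 and 121% in the transgene strain, so the sum did not fall. In all 45 of the 164 genes lie in a shared locus and 26 of them had a non-whole value in a library. Among these are let-756, unc-38, kcnl-4, twk-48, inx-10, hot-4, lgc-31, nlp-53 and ptrg-1, and the division of fragments between neighbours is uncertain there. The locus sum did not fall in any strain for lgc-31 and F21A3.3 with rpl-38, or for ptrg-1 with gta-1. For nlp-53 it kept 97.3% in sy441 and 87.8% in the transgene strain, and did not fall in N2. For hot-4 it kept 84.6%, 86.1% and 74.4%, and for unc-38 37.3%, 32.2% and 36.4%. Apart from unc-38, partners hold most of each sum, so the sums cannot show whether the member fell.

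Lower calls in heat were also found among receptor and channel genes outside the 164. Most of these families were defined after the members had been seen, and the counts below leave out the members themselves. Of the 85 other ligand-gated ion channel genes tested, 42 were called lower in N2, 38 in sy441 and 42 in the transgene strain, 32 of them in all 3, while 1, 2 and 0 were called higher. Of 117 other genes of amine, muscarinic and peptide receptors, 75, 65 and 80 were called lower and 0, 1 and 1 higher. Their median log2 fold changes were -0.90 in N2, -0.76 in sy441 and -0.95 in the transgene strain, against 0.02, 0.05 and 0.02 over all genes tested. For the other channel genes the medians were -0.57, -0.50 and -0.63. Of 27 other G alpha and RGS genes 15, 11 and 15 were called lower and 1, 1 and 0 higher. Among all genes tested 19.8%, 15.8% and 18.2% were called lower. The list of sensory G protein coupled receptors lay closer to those shares than the families above. Of its 193 other genes tested, 19.7%, 20.2% and 20.2% were called lower, while 26, 17 and 25 genes were called higher. Their medians were -0.11, -0.18 and -0.20.

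Further families were counted in the same way, beside 19.8%, 15.8% and 18.2% of all genes tested called lower. Of 61 other potassium channel genes 28, 24 and 29 were called lower and 3, 3 and 3 higher. Of 123 other neuropeptide and insulin genes 45, 59 and 62 were called lower and 16, 10 and 9 higher. Of 27 other cuticlin-like genes 9, 8 and 9 were called lower, of 23 innexin genes 5, 6 and 6, and of 27 DEG/ENaC channel genes 11, 10 and 12. Higher calls in those 3 families numbered between 1 and 3 per strain. The sensory receptor list apart, the medians of the families without the members were below 0 in every strain. This held with TMM, with RLE factors and with no composition factor. With no composition factor the median of all genes tested was itself -0.25 in N2, -0.29 in sy441 and -0.25 in the transgene strain.

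None of the 33 neuron markers tested was among the 164 genes. In each strain 2 of them were called higher, next to the lower calls given above, and their medians were -0.56, -0.28 and -0.65. Their summed level was 2060 to 2150 CPM at 20 °C and 1670 to 1830 CPM at 34 °C in N2, 2250 to 2330 and 1840 to 2020 CPM in sy441, and 2090 to 2330 and 1680 to 1890 CPM in the transgene strain. The synaptic vesicle gene rab-3 changed by -1.24 in N2, whereas snb-1, for synaptobrevin, changed by -0.06 and was not called. What part the neuron share of the RNA has in the fall of the receptor genes was not tested.

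Markers of other tissues were called in both directions. Of 18 intestine markers 2, 2 and 2 were called lower and 2, 1 and 1 higher. Of 22 epidermis and seam markers 4, 3 and 4 were lower and 1, 1 and 2 higher, and of 19 germ line markers 4, 3 and 3 were lower and 1, 1 and 2 higher. Of 12 body wall muscle markers 2, 0 and 0 were lower and 3, 7 and 5 higher, and of 16 pharynx markers 1, 0 and 1 were lower and none was higher. None of these markers is among the 164 genes. With no composition factor the median gene moved by -0.27, -0.34 and -0.27 in the heat response of N2, sy441 and the transgene strain, and list medians shift by about as much. The median of the muscle markers in N2 turned from 0.25 to -0.02 by this change.

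**Figure D3:**
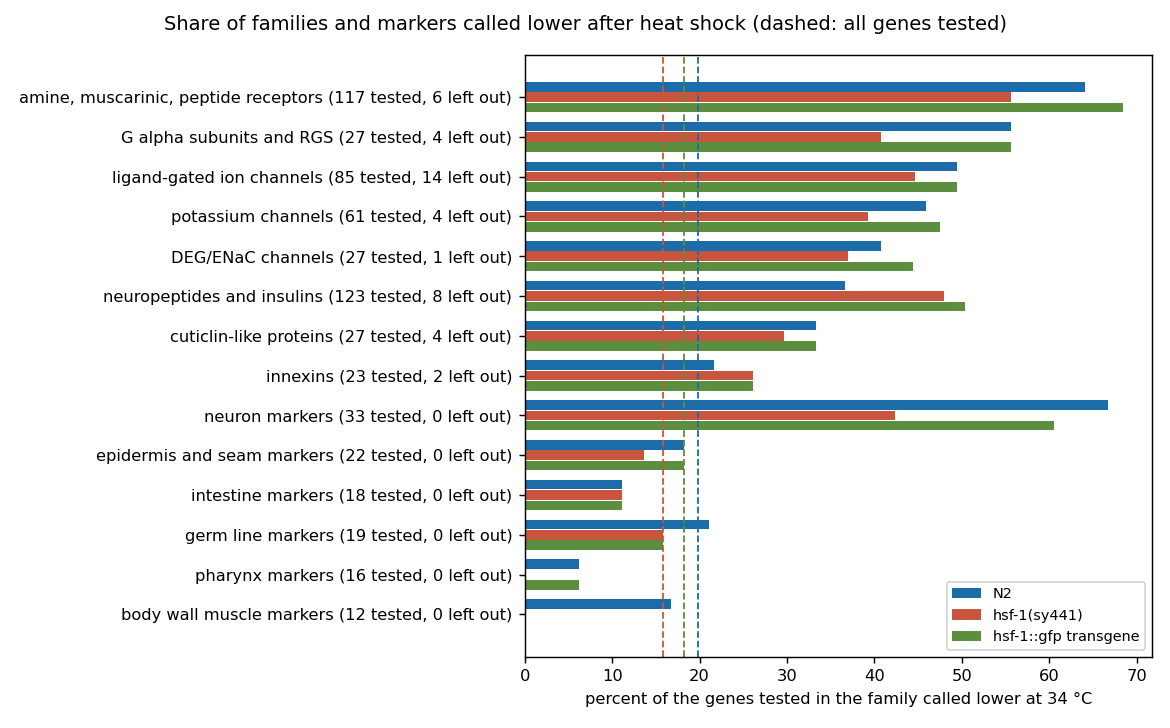
Percent of the tested genes of each family or marker list, without the 164 genes, that edgeR called lower at 34 °C than at 20 °C, with bars for the 3 strains and dashed lines at the percent of all genes tested. The receptor, G protein and channel families drawn and the neuron markers lie right of the dashed lines. The markers of pharynx, intestine and body wall muscle lie left of them. The list of sensory G protein coupled receptors is not drawn.

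At 20 °C most of the genes called between sy441 and N2 stood higher in sy441. Of the 164 genes, 15 (9.15%) were called higher in sy441 than in N2 and 2 (1.22%) lower. Among all genes tested 9.42% and 11.5% were called. The share called higher was thus near that of all genes, while the share called lower was below it. Of the 9102 genes of at least 5 CPM, 7.73% were called higher and 13.4% lower. The median log2 fold change was 0.14, with 111 of the 164 genes above 0, against 0.00 over all genes tested and 44.7% of the 9102 genes above 0. Median differences held their sign with RLE factors, and with no composition factor the median was 0.34 while all genes moved by 0.2. The count rests on single libraries: 6 and 4 genes were called without replicates 1 and 2 of N2 at 20 °C, and 9, 6 and 5 without replicates 1, 2 and 3 of sy441 at 20 °C.

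The genes called at 20 °C are of mixed roles. The uncharacterised gene C25E10.4 was lower in sy441, with 9.32, 7.88 and 6.77 CPM against 22.8, 20.2 and 16.2 CPM in N2, and the libraries did not overlap. Its log2 fold change was -1.30 ± 0.20 (SE, edgeR, adjusted p = 0.00087), and the call was lost in 1 of 24 alternatives (other scalings, filters and tests, a replicate block, and each library left out in turn). R09B5.11 was the other gene called lower, at -1.84 ± 0.61 (adjusted p = 0.046 by edgeR), with N2 libraries spread from 8.02 to 36.9 CPM.

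Higher in sy441 was tag-68, with 30.8, 28.3 and 29.3 CPM against 21.1, 18.2 and 18.7 CPM in N2. The difference was 0.61 ± 0.14 (SE, edgeR, adjusted p = 0.0095) and no library of one strain reached the other. F43G6.4, with 9.54, 10.4 and 9.69 CPM against 6.15, 6.56 and 6.48 CPM, showed the same separation (0.63 ± 0.14, adjusted p = 0.0086 by edgeR). F21A3.3 stood at 13.6, 15.1 and 19.4 CPM against 4.77, 5.72 and 7.97 CPM (1.38 ± 0.32, adjusted p = 0.01 by edgeR). It shares a locus with lgc-31 and the ribosomal protein gene rpl-38, which stood at 1360 CPM in sy441 and 1350 CPM in N2. Some fragment values of F21A3.3 were not whole, the division of fragments there is uncertain, and the authors' deposited table gave it a q value of 0.897. H20E11.1, at 0.81 ± 0.19 (adjusted p = 0.013 by edgeR), lay above N2 in all 3 libraries too.

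Neuronal genes were among the higher ones. The neuropeptide gene nlp-43 stood at 24.6, 22.4 and 21.7 CPM in sy441 and 14.7, 15 and 17.2 CPM in N2 (0.55 ± 0.15, adjusted p = 0.023 by edgeR), and was lost in 5 of 24 alternatives. The motor neuron factor gene unc-3 stood at 15.9, 17.3 and 17.7 CPM against 9.54, 9.22 and 13 CPM (0.68 ± 0.19, adjusted p = 0.026 by edgeR). The kinase gene sad-1 stood at 58.9, 58.7 and 57.5 CPM against 47, 47.3 and 43.3 CPM, a small but steady difference of 0.35 ± 0.11 (adjusted p = 0.036 by edgeR). The transthyretin-related gene ttr-28 had the largest rise called, 1.70 ± 0.50, with 22.1, 24.5 and 35.8 CPM against 9.21, 6.92 and 9.2 CPM. The remaining higher calls were twk-48, Y65A5A.1, irg-3, inx-10, T01D3.6, Y67A10A.7 and tig-2, between 0.40 and 1.32.

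In heated animals too the genes called between sy441 and N2 were mostly higher in sy441. Of the 164 genes 37 were called higher in sy441 than in N2 and 5 lower, where 14.8% and 14.2% of all genes tested were called, and 16.2% and 16.8% of the 9102 genes. The median log2 fold change was 0.28, with 120 genes above 0, against 0.02 over all genes tested. The sign was the same with RLE factors (0.26) and with no composition factor (0.41). The replicate numbers were taken to pair the libraries at 34 °C, but the replicate block is 1 effect per number shared by all 18 libraries. Included are the sy441 libraries at 20 °C. Their numbers were not taken to pair them with the other strains at 20 °C, although they were taken to pair the 2 temperatures within sy441. With this block 65 genes were called, 54 higher and 11 lower, against 22.4% and 21.0% of all genes tested. The unblocked count of 42 fell to 21 and 20 without replicates 1 and 2 of N2 at 34 °C, and to 27 and 25 without replicates 1 and 3 of sy441 at 34 °C. Of the 42 genes, 9 were also called at 20 °C, which is 52.9% of the 17 called there and 21.4% of the 42. All 9 were higher in sy441 at both temperatures. The overlap over all genes tested is not given, so the shared calls are not read as a trait of the set.

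Genes higher in heated sy441 than in heated N2 came from several roles. The gene sad-1 stood at 22.6, 21.9 and 21.1 CPM in sy441 and 12.6, 15.1 and 15.5 CPM in N2 (0.60 ± 0.11, adjusted p = 0.0017 by edgeR). The MAP kinase gene mapk-15 stood at 2.96, 3.56 and 4.33 CPM against 2.3, 2.3 and 2.41 CPM (0.63 ± 0.14, adjusted p = 0.0046 by edgeR). Both kinase genes had separate libraries, and both calls held in all 24 alternatives.

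Uncharacterised genes were among the clearest. Y67A10A.7 stood at 3.89, 3.66 and 4.73 CPM in heated sy441 and 2.16, 2.4 and 2.01 CPM in heated N2 (0.90 ± 0.15, adjusted p = 0.00068 by edgeR). The gene nssp-70 stood at 8.43, 7.6 and 8.86 CPM against 4.74, 5.53 and 5.15 CPM (0.69 ± 0.13, adjusted p = 0.0021 by edgeR). The gene gopc-1, in a locus of 14 genes, stood at 3.7, 3.11 and 4.13 CPM against 1.81, 2.46 and 2.01 CPM (0.79 ± 0.16, adjusted p = 0.0025 by edgeR). None of the 3 had overlapping libraries, and each call held in all 24 alternatives. Some fragment values of gopc-1 were not whole, and the division of fragments in its locus is uncertain. Every alternative used that same division, so the alternatives do not bear on it.

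Developmental and G protein genes followed. The TGF-beta ligand gene tig-2 was at 8.38 ± 0.596 CPM in heated sy441 and 5.48 ± 0.47 CPM in heated N2 (SD, n = 3), rgs-4 at 5.33 ± 1.01 and 3.47 ± 0.178 CPM, and cog-1 at 2.9 ± 0.524 and 1.63 ± 0.525 CPM. All 3 were called by edgeR, with log2 fold changes of 0.61, 0.62 and 0.83. By role, 5 of 9 genes of cell surface, adhesion and matrix were called higher. So were 2 of 4 kinase genes, 2 of 4 transcription factor genes and 2 of 5 genes of secreted developmental signals and their processing. Of 10 transporter genes 2 were called higher, and of 14 ligand-gated ion channel genes 2 (lgc-50 and acc-1). Among the 164 genes the share was 22.6%, and among all genes tested 14.8%. The roles are small and were written after the genes had been seen, so nothing is read from these counts. None was called higher among the 8 neuropeptide and insulin genes, the 6 amine, muscarinic and peptide receptor genes, the 4 potassium channel genes and the 4 cuticlin-like genes.

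The 5 genes called lower in heated sy441 were acr-15, cup-4, C11H1.7, T27A10.2 and the peptide transporter gene pept-2. The acetylcholine receptor gene acr-15 had the smallest adjusted p of the set. It stood at 2.76, 2.57 and 2.23 CPM in sy441 and 4.18, 4.3 and 3.68 CPM in N2, with no overlap (-0.69 ± 0.11, adjusted p = 0.00055 by edgeR), and the call was lost in 1 of 24 alternatives. T27A10.2 was at 0.676 ± 0.0986 and 1.33 ± 0.178 CPM.

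**Figure D4:**
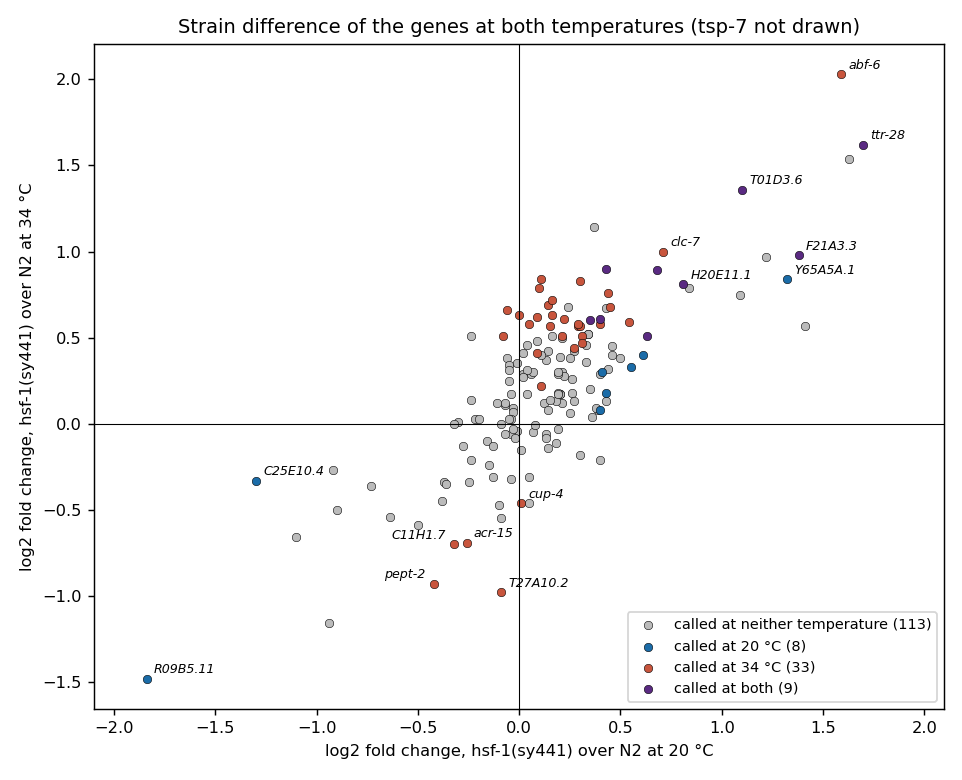
Log2 fold change of sy441 over N2 at 20 °C (x axis) and at 34 °C (y axis) for 163 of the 164 genes, coloured by where edgeR called them, with 8 called at 20 °C alone, 33 at 34 °C alone and 9 at both. tsp-7 is left out, since all heated N2 libraries were at 0, and more of the genes lie above 0 than below on both axes.

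Heated sy441 animals were also compared with heated animals of the transgene strain. Against the latter 15 of the 164 genes were higher in heated sy441 and 1 lower, where 5.24% and 3.9% of all genes tested were called, and the median was 0.28 with 128 genes above 0. With the replicate block, under the limit given above for it, 46 were called, 43 higher and 3 lower, against 10.9% and 11.4% of all genes tested. The count of 16 fell to 8 without N2 20 °C replicate 1, to 8, 8 and 9 without sy441 20 °C replicates 1, 2 and 3, to 9, 10 and 5 without sy441 34 °C replicates 1, 2 and 3, and to 6 and 7 without transgene 34 °C replicates 1 and 2, and it rose to 29 without transgene 34 °C replicate 3. The genes with the smallest p were gopc-1 (0.83 ± 0.15, adjusted p = 0.0042 by edgeR), with 2.41, 2.05 and 1.67 CPM in the transgene strain, and sad-1 (0.57 ± 0.11, adjusted p = 0.0052 by edgeR), with 12.2, 14.8 and 17.3 CPM. Both had every sy441 library above every transgene library, with the uncertain division of fragments given above for gopc-1.

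The genes hot-4, twk-48, T11G6.3 and F43G6.4 had the next smallest p-values between heated sy441 and the transgene strain. The gene hot-4, related to odr-2, stood at 2.12, 1.54 and 1.47 CPM in sy441 and 0.802, 0.891 and 0.942 CPM in the transgene strain (0.95 ± 0.22, adjusted p = 0.013 by edgeR). The two-pore potassium channel gene twk-48 stood at 9.76, 9.52 and 10.9 CPM against 6.89, 6.46 and 7.61 CPM (0.53 ± 0.12, adjusted p = 0.014 by edgeR). T11G6.3 and F43G6.4 differed by 0.93 ± 0.22 and 0.63 ± 0.15 (adjusted p = 0.015 and 0.018 by edgeR). These 4 calls were lost in 3 or 4 of 24 alternatives each.

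Between heated transgene animals and heated N2, 0 of the 164 genes were called higher and 2 lower, where 1.62% and 1.09% of all genes tested were called. With the replicate block 6 were called, 2 higher and 4 lower, against 4.09% and 4.36% of all genes tested. The 2 were cup-4, at 4.48, 5.12 and 5.29 CPM against 6.76, 7.88 and 7.42 CPM (-0.57 ± 0.14, adjusted p = 0.042 by edgeR), and C11H1.7, at 1.23, 1.29 and 0.942 CPM against 1.74, 2 and 2.14 CPM (-0.75 ± 0.16, adjusted p = 0.047 by edgeR). Their libraries did not overlap, yet the calls were lost in 15 and 18 of 24 alternatives, and the count was 0 or 1 without any of 16 libraries, all but N2 20 °C replicate 3 and N2 34 °C replicate 3.

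At 20 °C edgeR called 0 of the 164 genes in either direction between sy441 and the transgene strain, where 2.55% of all genes tested were higher and 2.08% lower, and 0 between the transgene strain and N2, where the shares were 0.949% and 0.38%. At an unadjusted p of 0.05, 16 and 11 genes passed in edgeR. The share of all genes at that p is not given, so nothing is read from these counts. DESeq2 called 8 and 3 of the 164 genes, where it called 9.86% and 2.87% of all genes to which it gave an adjusted p. Limma called 0 and 0, against 3.02% and 0.879% of all genes. For the transgene strain against N2, where the numbers were taken to pair the libraries, the replicate block called 3, against 4.52% of all genes. The medians were 0.09 and 0.03. The difference of 2 strain comparisons was not tested apart from the heat responses above.

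In the authors' deposited table of Cuffdiff tests, 22 of the 164 genes differed significantly between sy441 and N2 at 20 °C, 17 of them higher in sy441, and 4 at 34 °C, 3 of them higher. Of all genes tested in the authors' deposited table, 10.1% were significant and higher and 9.03% significant and lower at 20 °C, and 5.95% and 6.56% at 34 °C. The authors' deposited table gave C25E10.4 a log2 ratio of -1.22 and ttr-28 one of 1.74 at 20 °C, and unc-3 one of 0.744, all with q values that passed. For sad-1 at 34 °C the authors' deposited table gave 0.653 with a q value of 0.137.

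Gene structure and position were not used by the selection. They are given beside those of the 9102 genes, which were of higher level, with a median plain CPM of 35.2 against 12.2 in N2 at 20 °C, and no difference was tested. In the WBcel235 annotation, matched by name, the share of a gene's span taken by introns had a median of 54.2% over the 164 genes and 42.6% over the 9013 of 9102 genes that matched. Transcripts were of similar length, with medians of 1550 and 1580 bases, and had 7 and 6 exons. The gene span had medians of 3320 and 2970 bases. Chromosome V held 29.3% of the 164 genes and 17.8% of the 9102, and chromosome I 8.54% and 17.5%. Chromosome X held 18.3% and 15.1%, while II, III and IV held 13.4%, 15.2% and 15.2% against 16.2%, 17.3% and 16%. There were 10 pairs of members with gaps of at most 20 kb, 8 of them on chromosome V. The shares were left untested, since neighbouring genes and genes of one family are not independent.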

How the data were processed

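TopHat2, Cuffdiff and build ce10 are named in the submitters' processing notes, while versions, options and the annotation are not given in the sources used here. The deposited gene table has, per the file headers, 1 row for each gene and library, with unscaled expected counts (fragments that Cuffdiff assigned to the gene) and FPKM that the authors had normalised across libraries. Log2 ratios of group FPKM, with p-values and q values, come from the authors' deposited Cuffdiff tests. Replicates carry the numbers 0 to 2 in that table and 1 to 3 in the labels, and were matched in order. Of the fragment values of genes estimated in every library, 93.2% were whole, and 114 genes with a failed estimate were left out.

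Fragments were rounded and fitted in edgeR 4.0.16 (R 4.3.3) on all 18 libraries with 1 mean per group, after filterByExpr, with TMM factors of 0.85 to 1.239. Levels are CPM with these factors except where plain CPM is named, and errors are SD over 3 libraries or SE of a log2 fold change. Depth was 14.9 to 32.3 M fragments, reads had no molecular identifiers, and counting error alone is large for genes near 1 CPM. The procedure was also run on counts simulated from its own fitted spread, and nothing is read from that run here. Alternatives were RLE factors, no composition factor, no filter, DESeq2 1.42.0, limma 3.58.1 on log2(FPKM + 0.1), a replicate block and each library left out. For strain comparisons the block was 1 effect per replicate number shared by all 18 libraries, also by those not taken to pair. Same-numbered libraries deviated together from their group means, with correlations over 0.1 for every pair, within strains across temperatures (0.184 to 0.786), between all strains at 34 °C (0.262 to 0.734) and between the transgene strain and N2 at 20 °C (0.307 to 0.633), so the numbers were taken to pair those libraries, from the data and not the labels.

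The genes, lists and tests were chosen with earlier results of these data known, and the receptor, channel, innexin and cuticlin families and the roles were written after the members were seen. Named are the 10 members highest in FPKM, the 10 with the largest fall, up to 6 called per strain comparison, up to 4 per list and those next to the limits; other names were chosen after their values were seen. Gene names matched for 19879 of 20389 genes. No sequences are shown, and promoter motifs were not analysed here.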

Additional observations from a re-analysis of the deposited data

How the results depend on the processing

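The number of genes selected was 76 with TMM-scaled CPM and 70 with the authors' FPKM, 599 and 61 with limits of 50% and 25%, 300 and 98 with at least 1 and 10 CPM, and 148 to 177 with a library left out. For sy441 against N2 at 20 °C the 17 calls became 39 with no composition factor, 36 with DESeq2, 10 with limma, 42 with the replicate block and 4 to 24 with a library left out. The numbers 1 to 3 were not taken to pair the libraries of this comparison, with correlations of 0.406, -0.057 and 0.222 for replicates 1, 2 and 3. The same holds for sy441 and the transgene strain at 20 °C, with 0.288, 0.049 and 0.529. In each case this rests on replicate 2 alone. For sy441 against the transgene strain at 20 °C, 0 became 2 with no composition factor, 8 with DESeq2, 14 with the replicate block and 0 to 1 with a library left out. For the transgene strain against N2 at 20 °C, 0 became 3 with DESeq2 and 3 with the replicate block. At 34 °C the 42 calls of sy441 against N2 became 25 with limma, 65 with the replicate block and 20 to 52 with a library left out. The 16 calls against the transgene strain became 28 with DESeq2, 6 with limma, 46 with the replicate block and 5 to 29 with a library left out. The 2 calls of the transgene strain against N2 became 0 with no composition factor, 0 with no filter, 4 with DESeq2, 1 with limma, 6 with the replicate block and 0 to 3 with a library left out. For the heat response of sy441 minus N2, 0 became 1 with the replicate block and 0 to 1 with a library left out. The cause of these moves was not tested. None of the genes called in a strain comparison changed sign in it under an alternative, and of 20 named strain differences 10 kept their call in all 24. At 34 °C the median gene stood at 3.04 to 3.66 CPM, where counting error is a larger part of the spread than at 20 °C, and how small a difference these libraries could show was not tested.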
